A study of Mus musculus with 6 samples.

Results

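The interferon-inducible GTPases followed here are 10 genes chosen by their symbols. They are the guanylate-binding proteins Gbp2, Gbp3, Gbp4, Gbp5, Gbp6 and Gbp7 and the immunity-related GTPases (IRGs) Igtp, Irgm1, Irgm2 and Iigp1. All 10 were found among the 55536 genes of the raw count table and passed the filter on low counts, which kept 15374 genes. Bulk RNA was sequenced from 3 control tumors, labelled untreated and numbered 5, 6 and 7, and from 3 tumors, numbered 1, 2 and 5, of mice given GOx-DOX-LGP, a nanogel that carries glucose oxidase (GOx) and doxorubicin (DOX). In both groups HCA-1 cells, a single murine hepatocellular carcinoma (HCC) line, had been injected into the liver of male C3H mice (C3H/HeNCrNarl in the study's methods) aged 6 to 8 weeks, at 1000000 cells, so the tumors stood in a host with intact liver and immune cells. The labels place the intravenous doses on days 18, 19 and 20 and the transcriptome analysis on day 17 after 3 h of circulation. These dates cannot both hold. The study's supporting methods give the same dose days for tumors used in quantitative PCR and place their harvest after the last dose. They give no such dates for the sequenced tumors. No source used here says whether a library came from 1 mouse or from pooled mice, so p-values measure the spread between these libraries. The question was whether GOx-DOX-LGP tumors differed from untreated tumors in these GTPase genes.

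GBPs and IRGs are large GTPases that cells make in response to interferons, above all interferon gamma, and that act inside the cell against microbes. GBPs gather on bacteria and on the vacuoles of parasites, break those membranes and expose their contents to inflammasomes and caspases. Among IRGs, Igtp (also called Irgm3), Irgm1 and Irgm2 are regulators that sit on the cell's own membranes and hold the effector IRGs, such as Iigp1 (also called Irga6), in their inactive state. Interferon gamma signals through its receptor to DNA elements near its target genes, among them the gamma-activated site (GAS) and the interferon-stimulated response element (ISRE), the latter bound by the factor IRF1. In tumors, genes of this family are widely used as a trace of interferon gamma in the tissue, and both immune cells and tumor cells can make them. Mouse hepatocytes are known to make Iigp1 from a promoter of its own, without interferon.

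The short stretches below are shown because they hold the letters of an interferon element, or of both, upstream of members described next. They come from RefSeq on the build GRCm38.p6. Promoter windows were searched for 7 of the 10 members, all but Gbp4, Gbp6 and Iigp1. The chromosome that holds Iigp1 was left out of the search, so the promoter of Iigp1 was not read. The 250 bases before the annotated start were searched on both strands for ISRE as GAAANNGAAA and for GAS as TTCNNNGAA. Counted by gene, ISRE letters stood in a window of all 7 and GAS letters in a window of 4. Of the 8 windows of these genes, the second window of Gbp3 held neither. Of 32851 windows of all genes, 2.98% held ISRE letters, 7.02% held GAS letters and 0.332% held both. Capitals mark the matched letters, including matches read on the other strand, and each stretch is printed on the strand of its gene.

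Gbp2, ISRE, chr3:142620594-142620623, plus strand: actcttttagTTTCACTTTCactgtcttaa
Gbp3, overlapping ISRE matches, chr3:142559992-142560021, plus strand: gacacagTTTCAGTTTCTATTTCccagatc
Gbp5, ISRE, chr3:142496759-142496788, plus strand: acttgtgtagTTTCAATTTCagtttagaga
Gbp5, GAS, chr3:142496872-142496901, plus strand: tggccgttatTTCTCAGAAccaagcacaga
Gbp7, GAS and GAS, chr3:142530229-142530258, plus strand: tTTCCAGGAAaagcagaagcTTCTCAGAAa
Gbp7, ISRE, chr3:142530273-142530302, plus strand: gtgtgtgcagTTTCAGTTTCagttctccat
Igtp, GAS and ISRE, chr11:58199507-58199536, plus strand: ccatTTCTAGGAActGAAACTGAAAgctgt
Irgm2, GAS and ISRE, chr11:58214898-58214927, plus strand: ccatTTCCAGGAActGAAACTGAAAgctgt
Irgm1, overlapping ISRE matches, chr11:48871428-48871457, minus strand: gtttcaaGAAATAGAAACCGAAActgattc

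The Igtp and Irgm2 stretches were the same at 29 of 30 bases and differed by T8C, counted from 1 at the 5′ end with the Igtp base first. In both, a pair of bases separated the GAS letters from the ISRE letters after them. In Igtp the GAS letters began 45 bases before the annotated start and in Irgm2 75 bases before it. The ISRE letters of Gbp2 began 59 bases before the start and the first ISRE match of Gbp3 45 bases before it. Among the other GBP and IRG family genes, again with the chromosome of Iigp1 left out, 8 had a window, 4 of them with ISRE letters and 3 with GAS letters. Tgtp1 and Tgtp2, described further on, carried a GAS and an ISRE in the same order, and the Tgtp1 stretch matched that of Irgm2 at 25 of 30 bases. Such matches describe the letters of a window and do not show binding.

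Before the values, the libraries themselves differed in the RNA of cell type markers. Library totals lay between 15529940 and 18401178 counts, and levels are given as CPM, counts scaled to library size with the trimmed mean of M-values (TMM), on which 3 counts correspond to 0.132 to 0.323 CPM. The summed level of 9 hepatocyte marker genes was 563 CPM in control 5 but 112891 CPM in control 6 and 184552 CPM in control 7, and 3084, 1230 and 1732 CPM in treated tumors 1, 2 and 5. Controls 6 and 7 therefore carried far more hepatocyte marker RNA than control 5, and its source was not tested. The TMM factors of these controls, 0.759 and 0.569, stood apart from the 1.21 to 1.24 of the other libraries. The 6 pan-leukocyte markers summed to between 395 and 673 CPM in controls and between 698 and 968 CPM in treated tumors, with all 6 higher on average in treated tumors. No marker of these or of the other cell type lists named further on was at 0 in all libraries. Tumor epithelial markers (Krt8, Krt18, Epcam, Sox9, Afp and Gpc3) summed to 679 to 1219 CPM in controls and to 1196 to 1484 CPM in treated tumors, most of it from Krt8 and Krt18. Of these markers 4 were higher and 2, Afp and Gpc3, lower on average in treated tumors. In bulk tissue, fewer cells of a type and less RNA per cell cannot be told apart.

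Across the set, 9 members were higher on average in GOx-DOX-LGP tumors and 1, Iigp1, was lower, but none passed the test. The median log2 fold change was 0.94 over the 10 members, 1.22 over the 6 GBPs and 0.66 over the 4 IRGs, against 0.02 over all 15374 genes. By edgeR's quasi-likelihood test with Benjamini-Hochberg adjustment over all genes, 0 of 10 members were called at an adjusted p of 0.05, where 0.0% of all genes were called, and their adjusted p-values ran from 0.334 to 0.459. At an unadjusted p of 0.05, 0 of 10 members passed as higher, against 2.87% of all genes. DESeq2 called 0 of 10, against 9.48% of the genes for which it gave an adjusted p. In TMM CPM the treated and control libraries did not overlap for 5 members. Treated tumors were above every control for Gbp2, Gbp3, Igtp and Irgm1 and below every control for Iigp1. For Iigp1 this depended on the scaling. Over all genes, treated tumors stood above every control for 8.87% and below for 8.31%.

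The result turned on which controls entered. In 9 of 10 members control 5 stood with the treated tumors, and controls 6 and 7 stood apart from both. Without control 5, edgeR called 9 of 10 members, all higher in treated tumors, where 22.2% of all genes were called higher, and the median log2 fold change was 1.78. Without that control all 10 members were free of overlap, as were 71.9% of all genes. With controls 6 and 7 left out instead, a choice made after the values had been seen, 0 of 10 members were called, where 0.0% of all genes were called, and the median was 0.14. That fit has control 5 as its lone control and assumes that it varies like the treated tumors. limma voom with sample quality weights called all 10 members, 9 higher and Iigp1 lower, where 60.2% of all genes were called, 29.2% as higher and 30.9% as lower, and the weight it gave control 5 was 0.0844, against 0.615 to 4.97 for the other libraries.

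**Figure D1:**
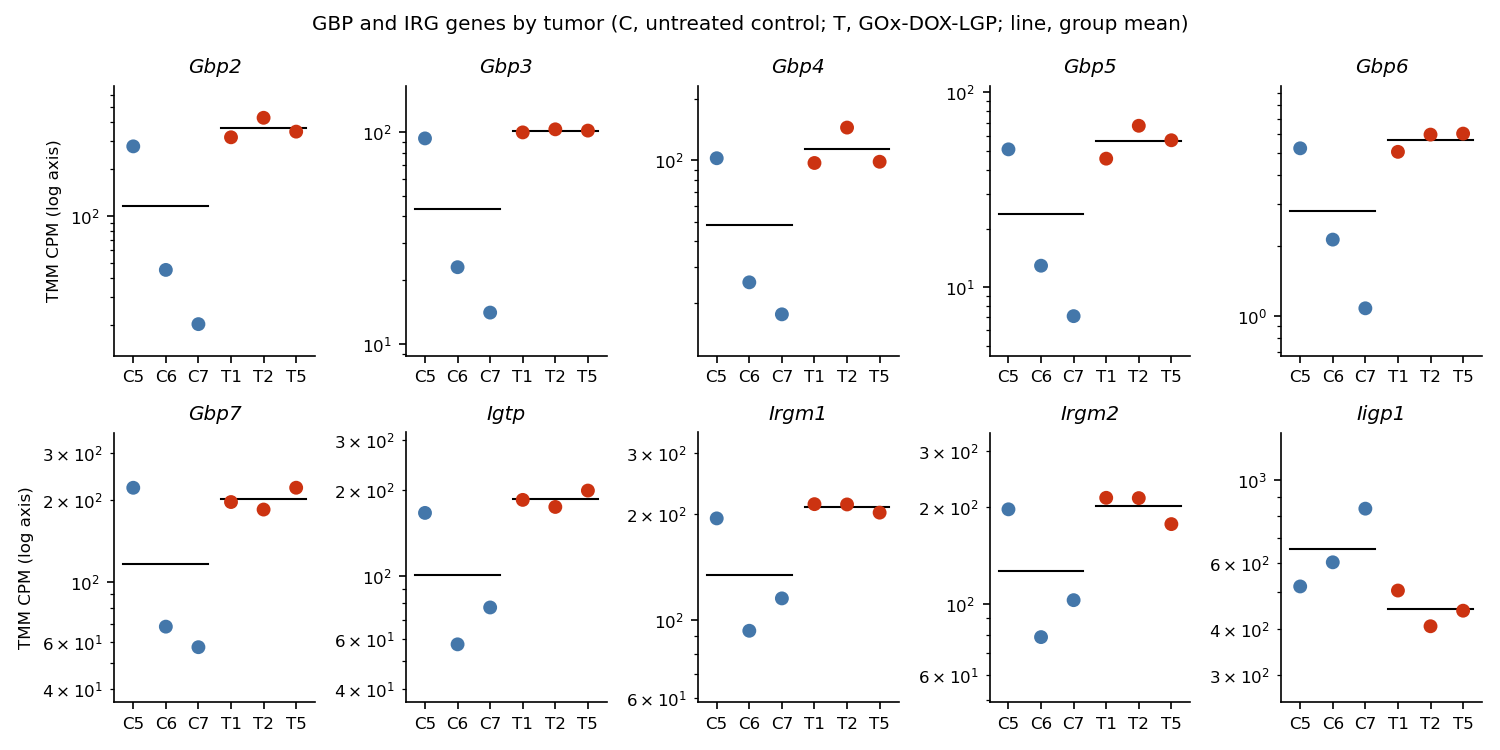
Level of each of the 10 GTPase genes in every tumor (TMM CPM, log axis; C, untreated control; T, GOx-DOX-LGP; horizontal lines, group means). In 9 panels control 5 sits beside the treated tumors while controls 6 and 7 sit lower, and in the Iigp1 panel controls 6 and 7 are the highest tumors.

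Gbp2, a lipid-anchored GBP known to coat parasite vacuoles, showed the widest spread of the 10 members on a log scale. Its level was 279, 44.9 and 20.1 CPM in controls 5, 6 and 7, compared with 319, 425 and 347 CPM in treated tumors 1, 2 and 5. Every treated tumor stood above every control, though control 5 came close to treated tumor 1, and control 7 lay far below both. The log2 fold change was 1.66 with an SE of 0.95 (edgeR adjusted p = 0.386), and 3.51 without control 5 (adjusted p = 0.000518), but 0.40 with controls 6 and 7 left out (adjusted p = 0.885). The mean of the treated tumors was 364 ± 55.3 CPM (SD, n = 3) and that of the controls 115 ± 143 CPM (SD, n = 3).

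The other GBPs of the chromosome 3 cluster were likewise lowest in controls 6 and 7. Gbp3 was at 93.3, 23.1 and 14.1 CPM in controls 5, 6 and 7 and at 99.5, 103 and 102 CPM in treated tumors 1, 2 and 5. The treated tumors were within a few CPM of each other and just above control 5, and did not overlap with the controls. The difference was 1.22 on the log2 scale (SE 0.70, edgeR adjusted p = 0.386). Gbp5, a GBP studied in macrophages for its part in inflammasome assembly, was at 51.0, 12.9 and 7.10 CPM in controls and at 45.7, 67.4 and 56.8 CPM in treated tumors, so treated tumor 1 fell below control 5. The log2 fold change of Gbp5 was 1.25 (SE 0.72, adjusted p = 0.387). Gbp7, known for helping to assemble the oxidase that makes superoxide in phagocytes, was at 222, 68.2 and 57.2 CPM in controls and at 197, 185 and 222 CPM in treated tumors. Control 5 was as high as the highest treated tumor, and the log2 fold change was 0.80 (SE 0.56, adjusted p = 0.459). With controls 6 and 7 left out it was -0.13, the reverse sign.

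Gbp4 and Gbp6 belong to the GBP cluster on chromosome 5. Gbp4 was at 102, 25.2 and 17.5 CPM in controls 5, 6 and 7 and at 97.1, 145 and 98.4 CPM in treated tumors 1, 2 and 5. Treated tumor 2 stood alone at the top, and the other treated tumors were slightly below control 5. The log2 fold change of Gbp4 was 1.23 (SE 0.69, adjusted p = 0.38). Gbp6 was the least abundant member, at 5.22, 2.12 and 1.08 CPM in controls and at 5.04, 5.98 and 6.04 CPM in treated tumors, all of them above the level of 3 counts. Its difference was 0.99 on the log2 scale (SE 0.58, adjusted p = 0.390), but 70.65% of the 50-base stretches of its transcripts also occur in other genes, mainly Gm43302 and Gbp10, so its count is uncertain. For Gbp7 this share was 12.74%, mainly with Gm43802, and for the other GBP members it was between 1.44% and 7.78%. The exons of Gbp4 also overlap those of Gbp8 and Gbp9 on the same strand.

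The 3 regulatory IRGs were also lowest in controls 6 and 7. Igtp was at 166, 57.3 and 77.3 CPM in controls 5, 6 and 7 and at 185, 174 and 199 CPM in treated tumors 1, 2 and 5. The groups did not overlap, with control 5 nearest to the treated tumors. Its log2 fold change was 0.89 with an SE of 0.43, and its edgeR adjusted p of 0.334 was the lowest of the 10 members. Irgm1, which is also tied to autophagy and to the health of mitochondria, was at 195, 93.2 and 115 CPM in controls and at 214, 213 and 202 CPM in treated tumors, again without overlap. The log2 fold change of Irgm1 was 0.64 (SE 0.33, adjusted p = 0.352). Irgm2 was at 197, 78.6 and 103 CPM in controls and at 214, 214 and 177 CPM in treated tumors, with treated tumor 5 below control 5, and its log2 fold change was 0.68 (SE 0.39, adjusted p = 0.386). In these 3 genes control 7 was above control 6, whereas in all 6 GBPs it was below. The exons of Igtp and Irgm2 overlap on the same strand within chr11:58199556-58222782 (GRCm38), so reads of one may have been counted for the other or dropped.

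Iigp1, the effector IRG that coats and breaks parasite vacuoles, ran the other way. It was at 519, 602 and 838 CPM in controls 5, 6 and 7 and at 506, 406 and 447 CPM in treated tumors 1, 2 and 5. In TMM CPM every treated tumor stood below every control, although treated tumor 1 and control 5 were close. Controls 6 and 7, with the most hepatocyte marker RNA, had the most Iigp1 on that scale. The raw counts of Iigp1 were 11825, 7100 and 7791 in controls 5, 6 and 7, of 18401178, 15602462 and 16374746 in all. They were 10234, 8283 and 8585 in treated tumors 1, 2 and 5, of 16360996, 16853954 and 15529940. Per library total, controls 6 and 7 were thus the lowest libraries and control 5 the highest. The log2 fold change was -0.53 (SE 0.33, edgeR adjusted p = 0.415), and -0.64 without control 5 (adjusted p = 0.0767). When libraries were scaled by their totals alone the value was 0.08, the reverse sign. That scaling moved the median of all genes to 0.51. The ratio of Iigp1 to Gbp2 in CPM was 1.86 in control 5, 13.4 in control 6 and 41.7 in control 7, and 1.59, 0.954 and 1.29 in treated tumors 1, 2 and 5. Control 5 was therefore nearer to the treated tumors than to the other controls also in a ratio taken within each library, which no scaling changes. The exact permutation test of single members, two-sided, gave p = 0.1 for each of the 5 members without overlap, the smallest p that 3 libraries against 3 allow, and p = 0.2 to 0.3 for the rest.

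**Figure D2:**
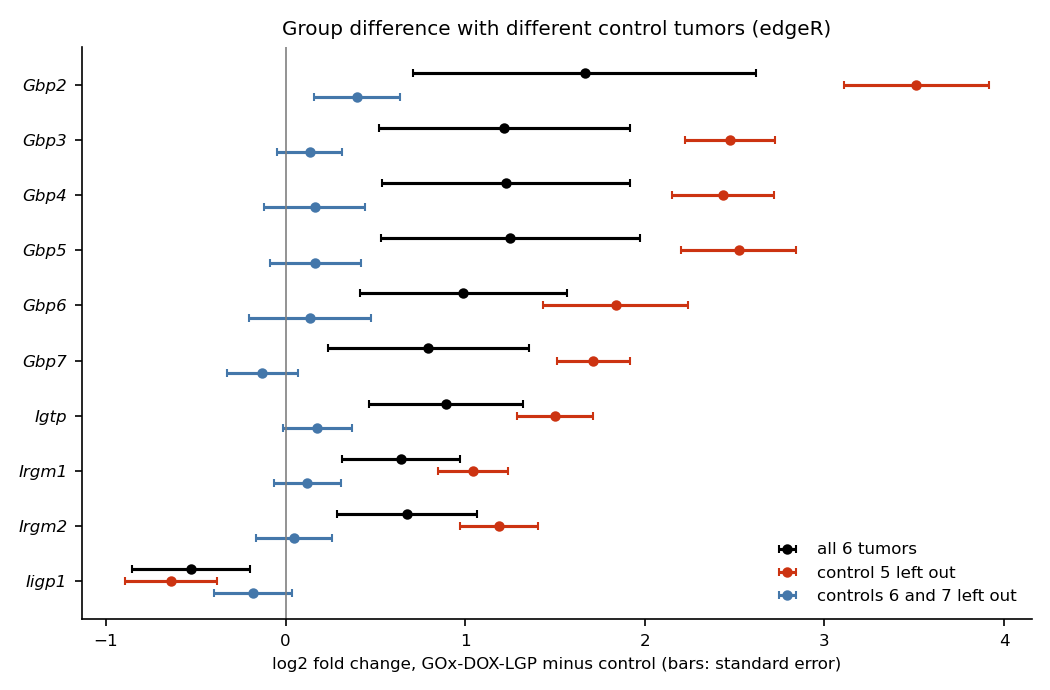
Log2 fold change of each member, GOx-DOX-LGP minus control, by edgeR (points; bars, standard error) with all 6 tumors, with control 5 left out and with controls 6 and 7 left out. For the 9 genes other than Iigp1 the value without control 5 lies furthest to the right and the value without controls 6 and 7 lies near 0, with Gbp2 running from 0.40 to 3.51.

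Levels can be compared between members only per length of transcript. In treated tumors, in TMM CPM per kilobase of exon, Gbp2 was highest at 144 ± 21.97 (SD, n = 3), followed by Igtp at 92.0 ± 6.14 and Iigp1 at 77.8 ± 8.64. Igtp and Iigp1 differed by less than the sum of their SDs. Irgm2 at 54.7 ± 5.74 came next, then Irgm1 at 36.1 ± 1.13 and Gbp7 at 35.9 ± 3.43, which did not differ beyond their spread. Below them stood Gbp3 at 31.0 ± 0.519, Gbp4 at 15.1 ± 3.63, Gbp5 at 8.53 ± 1.63 and Gbp6 at 0.955 ± 0.0936. In control 5 alone Gbp2 at 111 stood above Iigp1 at 89.1. Averaged over the 3 controls Iigp1 led at 112 ± 28.5, through its levels in controls 6 and 7, and no other pair of neighbours in the order was further apart than the sum of their SDs. Gbp2, first in treated tumors, averaged 45.5 ± 56.7 in controls and ranged from 111 in control 5 down to 8.00 in control 7.

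**Figure D3:**
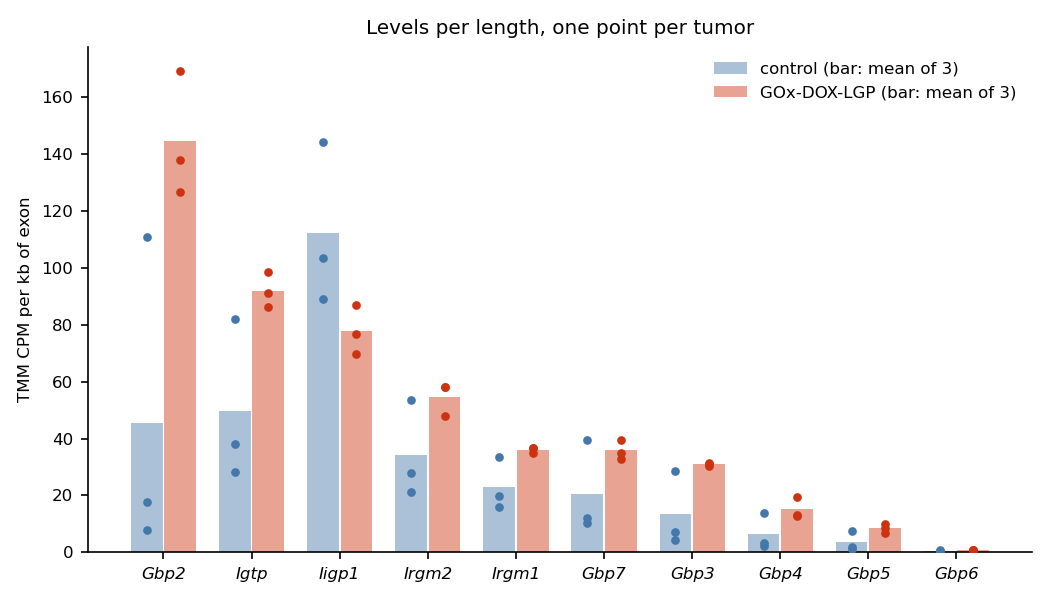
TMM CPM per kilobase of exon for each member (bars, mean of 3 tumors; points, single tumors), controls beside GOx-DOX-LGP. Gbp2 is highest in treated tumors at 144 and Iigp1 in controls at 112, and for 9 genes the highest control point, control 5, lies near the treated points.

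The order of libraries in the members was set beside the cell type markers. The mean log2 CPM of the 9 members without Iigp1 came to 6.65 in control 5, 4.93 in control 6 and 4.56 in control 7, and lay between 6.68 and 6.86 in the treated tumors. Relative to the mean log2 CPM of the pan-leukocyte markers, the 9 members stood at 0.13 in control 5, -1.07 in control 6 and -0.82 in control 7, and at 0.10, -0.18 and -0.21 in the treated tumors. On this difference, too, controls 6 and 7 were the lowest libraries. Whether the members scale with these markers was not tested. With the hepatocyte score of each library as a covariate, the median log2 fold change of the members was 0.49, and 0 of 10 had an adjusted p under 0.05, with 4 GBPs higher at an unadjusted p under 0.05, against 2.37% of all genes. T cell markers were higher on average in treated tumors in 8 of 8 genes, summing to 33.3 to 96.9 CPM in controls and to 128 to 193 CPM in treated tumors. For macrophage and monocyte markers this held in 7 of 8 genes, with sums of 534 to 1209 CPM in controls and of 1170 to 3157 CPM in treated tumors, and for natural killer cell markers in 5 of the 5 genes kept, with sums of 16.0 to 40.0 CPM in controls and of 42.8 to 75.8 CPM in treated tumors. Endothelial markers were lower in 6 of 6 genes, summing to 119 to 262 CPM in controls and to 86.3 to 102 CPM in treated tumors. In all 6, every treated tumor was below every control, as for 8.31% of all genes. Treated tumors stood above every control for 6 of 8 T cell and 5 of 6 pan-leukocyte markers. The same held for 3 of 8 macrophage and monocyte and 2 of 5 natural killer cell markers, and for 8.87% of all genes. For 1 macrophage and monocyte and 1 dendritic cell marker they stood below. Dendritic cell markers were higher in 4 genes and lower in 2, with sums of 35.5 to 132 CPM in controls and of 65.4 to 104 CPM in treated tumors. B cell markers were lower in 3 of the 3 genes kept (2.28 to 7.72 CPM in controls, 2.06 to 3.21 CPM in treated tumors) and neutrophil markers higher in 4 of the 4 kept (7.86 to 22.7 and 15.5 to 54.2 CPM). Fibroblast and stellate cell markers were split, 3 higher and 3 lower, with sums of 1406 to 5709 CPM in controls and of 2186 to 6873 CPM in treated tumors. The hepatocyte score used as covariate was 12.2 and 12.8 in controls 6 and 7 and 4.53 to 7.04 in the other libraries. That fit therefore cannot separate hepatocyte content from anything else that set these controls apart. The part of hepatocyte, leukocyte or tumor cell content in these differences was not tested.

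**Figure D4:**
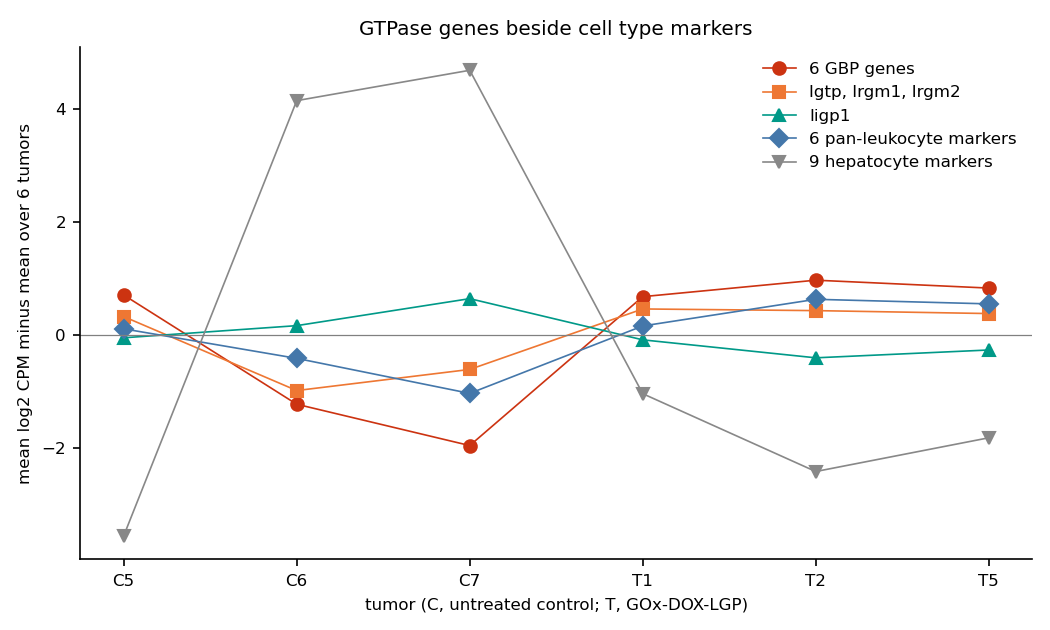
Mean log2 CPM of gene groups in each tumor, centred on the mean over the 6 tumors: the 6 GBPs, Igtp with Irgm1 and Irgm2, Iigp1, 6 pan-leukocyte markers and 9 hepatocyte markers. The GBPs and the 3 regulatory IRGs dip in controls 6 and 7, where the hepatocyte markers peak, and control 5 lies at the level of the treated tumors.

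Of the other GBP and IRG family genes, 18 of the 19 listed were in the table and 17 were kept by the filter. In this list 14 genes were higher and 3 lower in treated tumors, the median log2 fold change was 0.52, and edgeR called 0 at an adjusted p of 0.05, with 3 at an unadjusted p under 0.05, all lower, where 14.6% of all genes were lower at that threshold. Gbp2b, the neighbour of Gbp2 in the chromosome 3 cluster, was at 216, 26.6 and 7.43 CPM in controls 5, 6 and 7 and at 264, 352 and 287 CPM in treated tumors 1, 2 and 5. The groups did not overlap and control 5 again stood nearest the treated tumors (log2 fold change 1.85, SE 1.14, adjusted p = 0.411). Gbp8, Gbp9 and Gbp10, of the chromosome 5 cluster, had log2 fold changes of 0.74, 0.88 and 0.29, of which those of Gbp8 and Gbp10 turned negative with controls 6 and 7 left out. Gbp10 shares 84.07% of its 50-base stretches with other genes.

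Gbp11, annotated as a polymorphic pseudogene, had the opposite order within the same chromosome 5 cluster. It was at 9.39, 61.7 and 107 CPM in controls 5, 6 and 7 and at 10.5, 21.3 and 10.2 CPM in treated tumors 1, 2 and 5. Control 5 was below every treated tumor and the other controls were above them all. Its log2 fold change was -2.08 (SE 0.84, adjusted p = 0.281), and 0.59 with controls 6 and 7 left out, the reverse sign.

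Tgtp1 and Tgtp2, effector IRGs that load onto parasite vacuoles, had a wide gap between control 5 and the other controls. Tgtp1 was at 88.8, 5.26 and 5.81 CPM in controls 5, 6 and 7 and at 84.6, 44.97 and 56.1 CPM in treated tumors 1, 2 and 5. Control 5 was the highest of the 6 tumors and controls 6 and 7 were far below all others. The log2 fold change of Tgtp1 was 0.89 (SE 1.12) and that of Tgtp2 0.81 (SE 1.00), each turning negative with controls 6 and 7 left out, and these genes share 81.23% and 86.57% of their stretches with other genes, mainly each other. Gm12250, known as Irgb10, was at 28.9, 6.61 and 8.29 CPM in controls and at 31.4, 32.9 and 28.0 CPM in treated tumors (log2 fold change 1.07, SE 0.58). Ifi47, known as Irgd, was at 54.8, 41.5 and 50.8 CPM in controls and at 60.0, 80.6 and 70.2 CPM in treated tumors, without overlap (log2 fold change 0.52, SE 0.21, adjusted p = 0.286). Its 3 controls lay close together, and the log2 fold change was 0.37 with controls 6 and 7 left out.

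The relatives of Iigp1 on chromosome 18 split. Gm4951 was at 47.1, 190 and 278 CPM in controls 5, 6 and 7 and at 54.6, 50.2 and 54.5 CPM in treated tumors 1, 2 and 5, so control 5 was below all treated tumors. F830016B08Rik was at 20.5, 85.7 and 82.9 CPM in controls and at 8.06, 12.2 and 7.44 CPM in treated tumors. It was the one gene of this list with every treated tumor below every control, control 5 included. Its log2 fold change was -2.77 (SE 0.59), with an adjusted p of 0.247 by edgeR and 0.00094 by DESeq2, and with controls 6 and 7 left out it was -1.13 (edgeR adjusted p = 0.885). Gm4841 was at 24.2, 5.68 and 2.15 CPM in controls and at 21.8, 14.3 and 19.9 CPM in treated tumors, with control 5 the highest and the other controls the lowest (log2 fold change 0.79, SE 0.82). In TMM CPM, Iigp1, Gm4951 and F830016B08Rik were thus higher in controls 6 and 7 than in control 5, and Gm4841 was lower. For Iigp1 this order depended on the scaling.

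The remaining family genes were low or shared sequence heavily. Gm5431, 9930111J21Rik1 and 9930111J21Rik2 lay between 1.94 and 45.5 CPM, with treated tumor 2 highest in each, and had log2 fold changes of 0.43, 0.32 and 0.09. Gvin1, a giant interferon-inducible GTPase, was at 6.62, 0.339 and 0.753 CPM in controls and at 4.70, 4.36 and 2.39 CPM in treated tumors, and shares 99.16% of its stretches, mainly with Gm4070. Gm4070 was at 32.3, 7.72 and 3.87 CPM in controls and at 24.9, 28.9 and 12.1 CPM in treated tumors. Irgc1, which did not pass the filter, was at or below 0.49 CPM in every library.

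**Figure D5:**
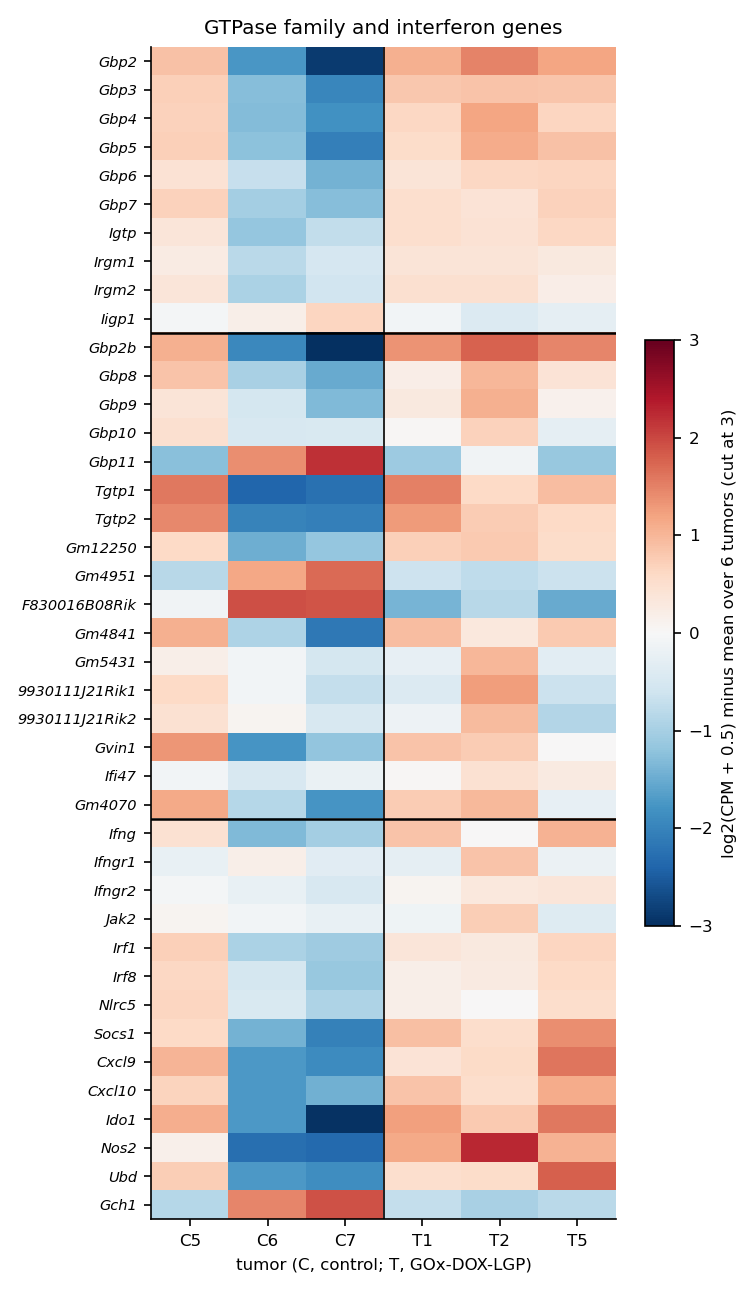
Log2 (CPM + 0.5) of each gene minus its mean over the 6 tumors, with the 10 members on top, other family genes below them and interferon pathway genes at the bottom (columns, tumors; red above and blue below the gene's mean, cut at 3). Most rows are blue in controls 6 and 7 and red elsewhere, while Iigp1, Gbp11, Gm4951, F830016B08Rik and Gch1 show the reverse in those columns.

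The ligand, receptor and signalling genes of the interferon pathway were read in the same tumors. Of 21 genes, 20 were kept, 16 were higher and 4 lower in treated tumors, the median log2 fold change was 0.34 and edgeR called 0 at an adjusted p of 0.05. At an unadjusted p under 0.05 by edgeR, 1 was higher, against 2.87% of all genes, and 1 was lower, against 14.6%. Ifng, the gene of interferon gamma itself, was low, at 48, 3 and 4 counts in controls 5, 6 and 7 and at 59, 29 and 66 counts in treated tumors 1, 2 and 5. In CPM this was 2.11, 0.254 and 0.430 in controls and 2.92, 1.42 and 3.43 in treated tumors, so controls 6 and 7 were near the level of 3 counts and control 5 lay among the treated tumors. The fitted log2 fold change was 1.38 (SE 0.81, adjusted p = 0.392). Ifnb1, a type I interferon gene, had 0 counts in each control and 3, 1 and 2 counts in the treated tumors, at or under 3 counts throughout, and no fold is given.

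The receptor gene Ifngr2 was at 56.2, 49.9 and 42.2 CPM in controls and at 62.2, 73.4 and 75.7 CPM in treated tumors, without overlap (log2 fold change 0.51, SE 0.20, adjusted p = 0.275). Ifngr1 and the kinase gene Jak2 overlapped between groups, with log2 fold changes of 0.34 and 0.23. Irf1 was at 235, 72.9 and 67.8 CPM in controls and at 184, 173 and 223 CPM in treated tumors, so control 5 was the highest tumor (log2 fold change 0.63, SE 0.54). Socs1, a feedback inhibitor of the receptor's kinases, was at 3.95, 0.594 and 0.215 CPM in controls and at 4.94, 3.72 and 7.23 CPM in treated tumors, with a log2 fold change of 1.67 (SE 0.95). Nlrc5, which drives major histocompatibility complex class I genes, had a log2 fold change of 0.34 (SE 0.44).

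Among 24 other target genes of interferon gamma, 23 were higher and 1 lower in treated tumors. The median log2 fold change was 0.89, close to the 0.94 of the members, and 0 were called by edgeR at an adjusted p of 0.05. At an unadjusted p under 0.05 by edgeR, 5 were higher, against 2.87% of all genes, and 1 was lower, against 14.6%. DESeq2 called 2, a share near the 9.48% of all genes. Nos2, the inducible nitric oxide synthase, was at 3.47, 0.254 and 0.215 CPM in controls 5, 6 and 7 and at 7.41, 16.7 and 6.92 CPM in treated tumors 1, 2 and 5. Controls 6 and 7 rest on 3 and 2 counts. Each treated tumor was above control 5, and the log2 fold change of 2.88 (SE 1.09, adjusted p = 0.261) became 1.59 with controls 6 and 7 left out (adjusted p = 0.885). Ubd, a ubiquitin-like modifier, had a log2 fold change of 1.61 (SE 0.95). Gch1, which makes the cofactor that Nos2 needs, was the gene that was lower, at 18.3, 93.2 and 126 CPM in controls and at 20.1, 16.8 and 18.9 CPM in treated tumors (log2 fold change -2.09, SE 0.67, edgeR adjusted p = 0.247, DESeq2 adjusted p = 0.0394). Control 5 again lay among the treated tumors, and the value was 0.04 with controls 6 and 7 left out.

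The partners of GBPs and IRGs, which are autophagy proteins that place these GTPases on membranes and the inflammasome and caspase genes downstream, had a median near that of all genes. All 20 were kept, 12 were higher and 8 lower, the median log2 fold change was 0.11, and edgeR called 0 at an adjusted p of 0.05. At an unadjusted p under 0.05 by edgeR, 1 was lower, against 14.6% of all genes. The 3 genes furthest from 0 were autophagy genes that were lower in treated tumors, namely Gabarapl1 at -2.70 (SE 0.85, edgeR adjusted p = 0.247, DESeq2 adjusted p = 0.0182), Atg5 at -1.12 (SE 0.50) and Atg3 at -1.07 (SE 0.46). Gabarapl1 was at 53.1, 560 and 564 CPM in controls 5, 6 and 7 and at 59.3, 72.9 and 49.0 CPM in treated tumors 1, 2 and 5. Control 5 stood among the treated tumors, and controls 6 and 7, rich in hepatocyte marker RNA, stood far above them. With controls 6 and 7 left out, Gabarapl1, Atg5 and Atg3 had log2 fold changes of 0.20, 0.31 and 0.17.

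Likeness to the mean profile of the members over the 6 libraries was measured as the root mean square difference of centred log2 CPM. Gbp7 was the closest of the members to their own mean at 0.131, and Gbp2 at 0.876 and Iigp1 at 1.13 were the furthest. Outside the family, the nearest genes were Gpr137b-ps at 0.0723, Uck2 at 0.0913, Micall2 at 0.106, Rcn2 at 0.106 and Bhlhe41 at 0.109. Uck2, a uridine-cytidine kinase, was at 87.8, 29.1 and 22.4 CPM in controls 5, 6 and 7 and at 97.9, 95.2 and 86.2 CPM in treated tumors 1, 2 and 5. None of them is on the interferon lists used here, and each had a high control 5, low controls 6 and 7 and level treated tumors.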

How the data were processed

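Per the labels, RNA was extracted from tumors with the RNeasy kit and libraries were made with the KAPA mRNA HyperPrep kit. The submitters' processing notes name Trimmomatic 0.38, HISAT2 2.1.0 and featureCounts 2.0.0, whereas the supporting methods name TopHat and HTSeq. Genome build, annotation release and strand setting are not given in the sources used here. The authors deposited raw counts of 55536 genes, used here, and a signal table of 34685 genes, which is those counts over 1 size factor a library (0.532 to 1.32) and gave the gene symbols.

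Counts were filtered with filterByExpr, scaled with TMM and tested with edgeR 4.0.16 (quasi-likelihood, 3 against 3, no covariate, Benjamini-Hochberg, threshold 0.05) in R 4.3.3. The SE is the log2 fold change over the square root of F. The prior count for log2 CPM was 2. Alternatives were DESeq2 1.42.0, limma 3.58.1 voom with sample quality weights, other scalings and filters, a hepatocyte score as covariate and leaving out each library. Exon lengths, coordinates and shared 50-base stretches came from GENCODE M21 (GRCm38), which held 55450 of the identifiers, and promoter windows from RefSeq. The members and gene lists were chosen with earlier results of these data known. Named genes were all members and listed family genes, Ifng, Ifnb1, Ifngr1, Ifngr2, Irf1, Jak2, Nlrc5 and Socs1, the 3 largest changes of each other pathway list, and the 5 genes most like the members, apart from an item not reported here. Depth was 15529940 to 18401178 counts, and the level of 3 counts covers counting error only.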

Additional observations from a re-analysis of the deposited data

How the results depend on the processing

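No paired analysis was possible because the groups share a single replicate number. Leaving out 1 library at a time gave a median log2 fold change of 0.67 to 1.78 and 0 to 9 calls for the 10 members, with 5 to 10 members not overlapping, 0.24 to 1.46 and 0 to 13 calls for the other family genes, 0.22 to 0.41 and 0 to 11 calls for the signalling genes, 0.61 to 1.58 and 0 to 19 calls for the interferon gamma targets, and 0.07 to 0.14 and 0 to 8 calls for the partners. The highest of these came without control 5, where 47.7% of all genes were called and 71.9% did not overlap, except for the signalling and partner medians, which were highest without treated tumor 1. With controls 6 and 7 left out, chosen after values had been seen, the medians of members, other family genes and targets were 0.14, -0.28 and 0.33, with 0 calls. limma voom with sample quality weights called 10 members, 13 other family genes, 13 signalling genes, 21 targets and 10 partners, where 60.2% of all genes were called. DESeq2 called 1 other family gene, 2 targets and 1 partner, where 9.48% of all genes were called. With other scalings of all 6 libraries, as few as 4 members did not overlap. The share of all genes without overlap is not given for these scalings, nor for leaving out a library other than control 5. Scaling by library totals, which moved the median of all genes to 0.51, gave medians of 0.79 for signalling genes and 0.62 for partners, and the partner median was 0.29 with upper quartile scaling and 0.18 with no filter on low counts.

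Signs turned for single genes. With controls 6 and 7 left out, the log2 fold change was -0.13 for Gbp7, -0.28 for Gbp8, -0.27 for Gbp10, 0.59 for Gbp11, -0.50 for Tgtp1, -0.53 for Tgtp2, 0.19 for Gm4951, -0.36 for Gm4841, -0.28 for 9930111J21Rik1, -0.28 for 9930111J21Rik2, -0.78 for Gvin1 and -0.54 for Gm4070. Leaving out 1 library at a time gave -0.022 to 0.73 for Gbp10, -0.18 to 0.73 for Gm5431, -0.64 to 0.81 for 9930111J21Rik1 and -0.55 to 0.47 for 9930111J21Rik2, each lowest without treated tumor 2, and the last gene was at -0.13 without control 7. The hepatocyte covariate gave -0.10 for Gbp10, -0.21 for 9930111J21Rik1 and -0.25 for 9930111J21Rik2, and voom gave -0.14 and -0.18 for the latter pair. Library totals gave 0.085 for Iigp1. Apart from the voom weights and from fits with fewer libraries, the cause was not tested. With 3 counts at up to 0.323 CPM, Ifng in controls 6 and 7 and Irgc1 were at the limit of depth.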
